A study of Mus musculus with 12 samples.

Results

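The mouse Hox genes were followed in the calf muscle of adult males fed an adequate or a high phosphorus diet. They were taken as every transcript on the array whose gene symbol was Hox, a letter from a to d and a number, with the brightest transcript kept where a symbol had several. This gave 38 genes of 22206 transcripts, each with 1 transcript measured by 10 probes: 11 genes of cluster A, 10 of cluster B, 9 of cluster C and 8 of cluster D. Hoxd4 was not analysed here. By number, 8 genes belonged to paralogue groups 1 to 3, 14 to groups 4 to 8 and 16 to groups 9 to 13.

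The series held 12 Affymetrix Clariom S arrays of total RNA from pieces of M. gastrocnemius, the large calf muscle of the hindlimb, with 1 male C57BL/6J mouse per array. The 6 mice of the P0.3 group received 0.3% phosphorus and the 6 mice of the P1.2 group 1.2% phosphorus for 6 weeks, and each 6 were drawn at random from 12 mice on that diet. Both groups shared the same basal diet, which differed between them in its phosphorus components per the labels, and potassium bicarbonate evened out the potassium of the P0.3 diet. The mice were 19 weeks old at purchase and are labelled as 6.5 months old, and they carried no genetic alteration that the labels name. They were housed in groups whose membership was not known here, so mice of 1 cage could not be marked. No scan or extraction batch was given in the sources used here. The question was whether the high phosphorus diet changed gene transcription in the muscle.

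Hox genes encode homeodomain transcription factors that lie in clusters, in an order that matches where along the body axis each is used in the embryo. Low-numbered genes act in the hindbrain and neck, middle genes in the trunk, and high-numbered genes in the lumbar and tail region and, in clusters A and D, again along the limb from thigh to digits. Adult cells, among them fibroblasts and muscle cells, keep part of the pattern of the place in which they arose.

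Signals are given as log2 values of the deposited processed table, in which a step of 1 is a doubling of signal. Signals of different genes came from different probes, so their order is one of signals and not of transcript amounts. In muscle pieces, fewer cells of a type and less RNA per cell cannot be told apart. As a mark of background, a level of 6.11 was used, below which the means of 95% of 1451 olfactory and vomeronasal receptor transcripts lay. Of the 38 Hox genes, 20 had a mean above it, or 52.6%, beside 53.4% of all transcripts. Array by array, 16 of the 38 lay above the level on all 12 arrays, 6 on some of them and 16 on none.

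**Figure D1:**
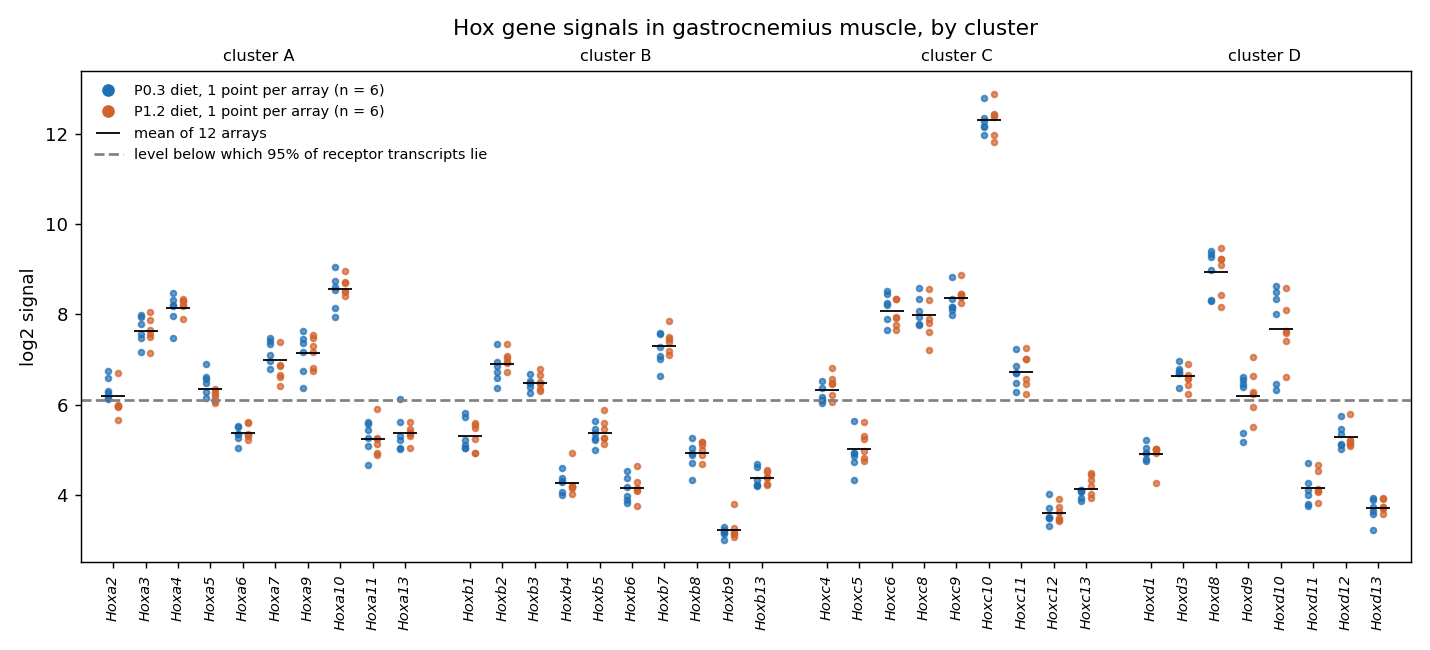
Log2 signal (vertical axis) of 37 of the 38 Hox genes, ordered by cluster and by number within the cluster, with 1 point per array (blue, P0.3; orange, P1.2; n = 6 each), the mean of 12 arrays as a bar and the background level of 6.11 as a dashed line. Hoxc10 stood at a mean of 12.30, while the genes at the high-numbered end of every cluster lay under the line.

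The brightest Hox gene was Hoxc10, a lumbar gene of paralogue group 10 that is active in the embryonic hindlimb and not the forelimb. Its signal ran from 11.97 over a median of 12.22 to 12.78 on the P0.3 diet and from 11.82 over 12.39 to 12.89 on the P1.2 diet. Both groups overlapped almost wholly, and every array lay far above the background level. The transcript lies on chromosome 15, plus strand, at chr15:102966796-102971898 of mouse build GRCm38, within the cluster C span of chr15:102921103-103036852.

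The next 5 by mean signal came from clusters A, C and D. Hoxd8, a trunk gene of group 8, followed at 8.93, Hoxa10, which like Hoxc10 patterns the lumbar spine and also the thigh, at 8.57, and Hoxc9, a lower thoracic gene, at 8.36. Hoxa4, a neck vertebra gene, stood at 8.15 and Hoxc6, a gene of the upper thorax, at 8.08. Hoxa10 spanned 7.94 to 9.05 with a median of 8.57 on the P0.3 diet and 8.40 to 8.97 with a median of 8.61 on the P1.2 diet. Hoxc9 spanned 7.98 to 8.83 (median 8.17) under P0.3 and 8.24 to 8.86 (median 8.42) under P1.2. For both genes the P1.2 range lay inside or just past the upper end of the P0.3 range. Hoxa4 ran from 7.48 to 8.47 (median 8.19) under P0.3 and from 7.89 to 8.33 (median 8.25) under P1.2, and Hoxc6 from 7.66 to 8.52 (median 8.23) under P0.3 and from 7.66 to 8.35 (median 7.94) under P1.2. Both ranges overlapped for each gene.

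Among the 8 genes of groups 1 to 3, which set identities in the hindbrain and the pharyngeal arches, 5 lay above the background level. Hoxa3, needed for thymus and parathyroid development, had the highest mean of them at 7.64, ahead of Hoxb2 at 6.91, Hoxd3 at 6.63, Hoxb3 at 6.49 and Hoxa2 at 6.20. Hoxb1 and Hoxd1 had means of 5.30 and 4.91, under the level. The annotated span of Hoxa3 on the array holds the whole spans of Hoxa4, Hoxa5 and Hoxa6 on the same strand, with 2083, 2834 and 3292 shared bases. Probe positions were not used here, so whether the Hoxa3 signal also holds theirs was not tested.

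Of the 14 genes of groups 4 to 8, 8 lay above the level. They were Hoxd8, Hoxa4, Hoxc6, Hoxc8 at 7.99, Hoxb7 at 7.30, Hoxa7 at 6.99, Hoxa5 at 6.34 and Hoxc4 at 6.32. Of the 5 cluster B genes in these groups only Hoxb7 lay above it, while Hoxb4, Hoxb5, Hoxb6 and Hoxb8 had means between 4.15 and 5.38.

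Of the 16 genes of groups 9 to 13, 7 lay above the level, and all 7 were of groups 9 to 11. Of these groups, 10 was the one in which each measured member lay above it, with Hoxc10, Hoxa10 and Hoxd10, a thigh and lumbar gene, at 7.68. Group 9 gave Hoxc9, Hoxa9 at 7.15 and Hoxd9 at 6.19, whereas Hoxb9 had the lowest mean of the 38 genes at 3.22. Of group 11, which patterns the lower leg and forearm, Hoxc11 lay above the level at 6.73, and Hoxa11 at 5.25 and Hoxd11 at 4.16 lay under it. The genes of groups 12 and 13, which act in digits, tail and hair, lay under it in every cluster, with means from 3.60 for Hoxc12 to 5.37 for Hoxa13. Among the limb genes of clusters A and D, the means of Hoxa10 and Hoxd10 were above the level and those of Hoxa11, Hoxa13, Hoxd11, Hoxd12 and Hoxd13 below it.

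By cluster, 7 of 11 genes of cluster A, 3 of 10 of cluster B, 6 of 9 of cluster C and 4 of 8 of cluster D lay above the level. The cluster spans were chr6:52155367-52260880 on the minus strand for A, chr11:96194316-96368256 on the plus strand for B, and chr2:74668308-74765142 on the plus strand for D, all in GRCm38.

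The samples carried the skeletal muscle markers of their label. All 10 skeletal muscle markers stood at means of 16.51 or more. Both hindlimb field genes lay above the background level, Tbx4 at 7.34 and Pitx1 at 6.27, and so did Tbx5, the forelimb field gene, at 6.73. These field genes therefore did not tell hindlimb from forelimb. Of 18 limb pattern genes 13 lay above the level. No gene of these 3 limb lists passed the criteria between the diets, and their median log2 fold changes were -0.04, 0.12 and 0.06.

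The spread of Hox signals between arrays was mostly small. Within the diets the pooled standard deviation (SD) had a median of 0.28 over the Hox genes, beside 0.31 over all transcripts, and 15 of 38 genes exceeded the latter. Hoxb3, a hindbrain gene, varied least among those above the level, with an SD of 0.16, at percentile 3.6 of all transcripts. It ran from 6.26 over a median of 6.47 to 6.68 under P0.3 and from 6.31 over 6.48 to 6.78 under P1.2. Its diet ranges nearly coincided.

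A run of neighbours in cluster D varied most. The SD was 0.87 for Hoxd10, 0.59 for Hoxd9 and 0.51 for Hoxd8, at percentiles 99.2, 96.2 and 92.6 of all transcripts, and the next Hox gene, Hoxc8, lay at percentile 80.7. Hoxd10 ran from 6.33 over a median of 8.18 to 8.63 under P0.3 and from 6.61 over 7.60 to 8.58 under P1.2. Hoxd9 ran from 5.17 over 6.43 to 6.62 under P0.3 and from 5.50 over 6.26 to 7.05 under P1.2, and Hoxd8 from 8.29 over 9.13 to 9.40 under P0.3 and from 8.17 over 9.15 to 9.46 under P1.2. In each gene both diets held high and low arrays and the groups overlapped. Of the measured genes on either side, Hoxd11 had an SD of 0.33 and Hoxd3 of 0.21. Hoxd11, with a mean of 4.16, lay under the background level on every array, so its spread says little. Hoxd4, numbered between Hoxd3 and Hoxd8, was not analysed, so where the variation ends is not shown.

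The transcripts of these neighbours follow each other on the plus strand of chromosome 2, Hoxd10 at chr2:74691090-74695106, Hoxd9 at chr2:74697680-74700208 and Hoxd8 at chr2:74704615-74707933. The 250 bases before a RefSeq transcript start of each, as a promoter table gives it, are shown (RefSeq, GRCm38.p6, plus strand). The homeodomain core TAAT or its reverse ATTA is in capitals. A link between these sequences and the signals was not tested. The windows lie at chr2:74691641-74691890, chr2:74697513-74697762 and chr2:74704365-74704614.
Hoxd10: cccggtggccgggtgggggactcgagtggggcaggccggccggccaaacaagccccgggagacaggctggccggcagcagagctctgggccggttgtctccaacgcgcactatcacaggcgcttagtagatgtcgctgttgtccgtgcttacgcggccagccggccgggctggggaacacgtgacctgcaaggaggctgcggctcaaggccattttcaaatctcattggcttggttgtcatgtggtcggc
Hoxd9: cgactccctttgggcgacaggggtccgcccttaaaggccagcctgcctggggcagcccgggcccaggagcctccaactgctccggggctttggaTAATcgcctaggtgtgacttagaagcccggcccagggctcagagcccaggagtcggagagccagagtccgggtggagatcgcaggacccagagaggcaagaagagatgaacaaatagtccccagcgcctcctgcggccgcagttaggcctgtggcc
Hoxd8: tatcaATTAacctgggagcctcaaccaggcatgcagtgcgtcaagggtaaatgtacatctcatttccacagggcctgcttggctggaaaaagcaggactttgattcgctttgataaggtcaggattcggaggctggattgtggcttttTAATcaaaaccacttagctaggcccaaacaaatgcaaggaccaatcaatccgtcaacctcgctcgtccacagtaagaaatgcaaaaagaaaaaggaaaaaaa
The core occurred at 0 sites in the Hoxd10 window, 1 in the Hoxd9 window and 2 in the Hoxd8 window, and 54.9% of 32851 mouse promoter windows of this length held it. RefSeq begins the Hoxd10 gene further upstream, at position 74684273, so that its window lies within the gene, while the Hoxd9 and Hoxd8 windows end just before theirs. All 250 bases of the Hoxd10 window and 83 bases of the Hoxd9 window lie inside the span that the array gives for the transcript. Other motifs were searched on both strands. A CCAAT box (CCAAT, in reverse ATTGG) was found once each in the Hoxd10 and Hoxd8 windows and in 33.8% of all, and a GC box (GGGCGG, in reverse CCGCCC) was found once in the Hoxd9 window and in 32.7% of all. E-boxes (CANNTG) numbered 2, 1 and 1 and occurred in 66.2% of all windows, and a TATA box (TATAAA, in reverse TTTATA) was in none of these windows and in 12.4% of all. The GC content was 65.6% for Hoxd10, 65.2% for Hoxd9 and 44.4% for Hoxd8, beside a median of 52.4%. These matches describe the letters alone. Promoter windows were at hand for 21 of the 38 Hox genes.

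The signals of these genes moved with those of slow fibre genes. Gastrocnemius is a mixed muscle whose slow, oxidative fibres lie in its deep part, and the mean of 13 slow fibre markers, such as the slow myosin gene Myh7, differed widely between the pieces. It ran from 8.09 to 12.59 under P0.3 and from 8.69 to 12.64 under P1.2, with group means of 10.31 and 10.28 (exact two-sided permutation p = 0.97, n = 6 each). The arrays left a gap: 8 lay at or under 10.24 and 4 at or above 11.54, namely P0.3 replicates 9 and 11 and P1.2 replicates 2 and 12. On those 4 arrays Hoxd8 lay at 8.17 to 8.42, and on the other 8 at 8.98 to 9.46, with no overlap. Hoxd10 lay at 6.33 to 7.41 on the 4 and at 7.58 to 8.63 on the 8, also without overlap. Hoxd9 lay at 5.17 to 6.29 and 5.94 to 7.05, and here the ranges overlapped. On P0.3 replicates 9 (5.38) and 11 (5.17) and P1.2 replicate 12 (5.50) Hoxd9 was under the background level. Among the other 8 arrays, so was P1.2 replicate 4 (5.94). Hoxa3, outside the run, separated the other way, at 7.88 to 8.05 on the 4 and at 7.15 to 7.79 on the 8. How many of all transcripts separated between these arrays was not counted. The 4 arrays were picked by a measured value, so these ranges are a description.

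A limma fit with diet and the slow fibre mean over all 12 arrays gave the slope of each gene, as the change in log2 signal per log2 unit of the marker mean. The slope was below 0 with an adjusted p under 0.05 for 3 of 38 Hox genes, beside 1.09% of all transcripts tested, and above 0 for 0 Hox genes, beside 2.01%. Over all transcripts the count below 0 was 241, and without 1 array it ran from 89 (without P1.2 replicate 12) to 472 (without P0.3 replicate 7). The slopes were -0.29 (SE 0.04, limma adjusted p = 0.0007) for Hoxd8, -0.42 (SE 0.08, limma adjusted p = 0.0061) for Hoxd10 and -0.26 (SE 0.07, limma adjusted p = 0.043) for Hoxd9. The call of Hoxd9 was lost in 8 of the 12 fits that left out 1 array, P0.3 replicates 1, 3, 5, 9 and 11 and P1.2 replicates 8, 10 and 12 (adjusted p from 0.051 to 0.19), while Hoxd8 and Hoxd10 stayed under 0.05 in all 12. With the marker mean in the fit, the residual SD of Hoxd8 was 0.15, that of Hoxd9 0.41 and that of Hoxd10 0.52.

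**Figure D2:**
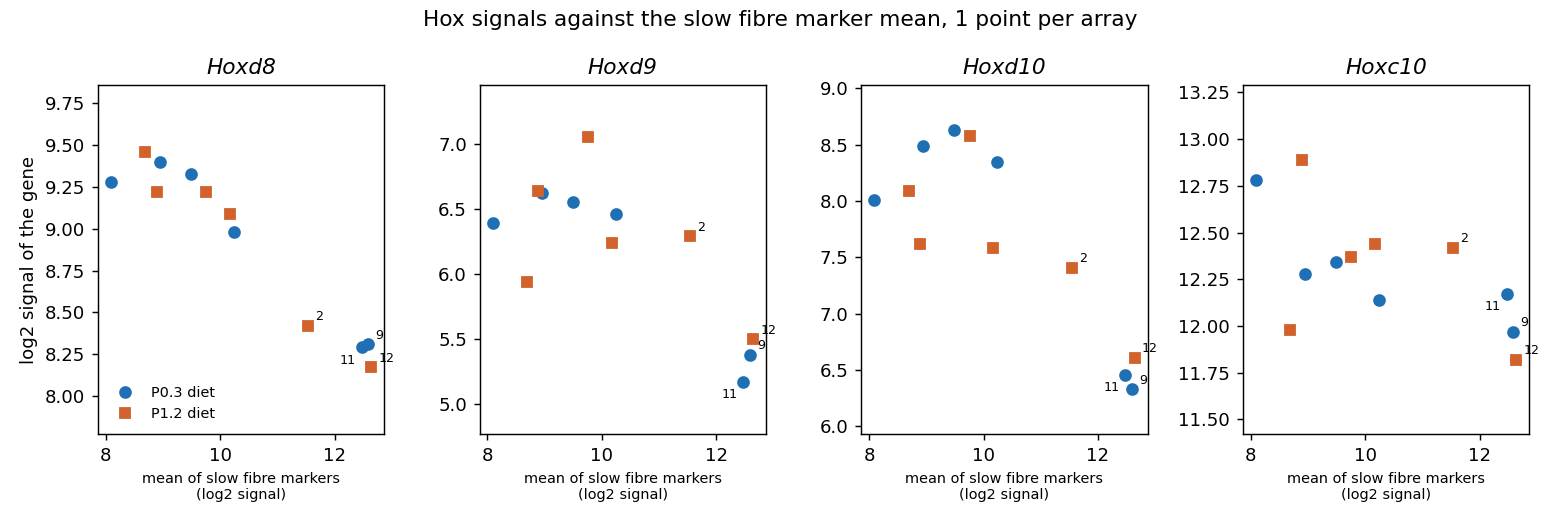
Log2 signal of Hoxd8, Hoxd9, Hoxd10 and Hoxc10 (vertical axes, each with its own range) against the mean log2 signal of 13 slow fibre markers (horizontal axis), with 1 point per array, circles for P0.3 and squares for P1.2. The numbered points are the replicates with a marker mean of 11.54 or more, among which Hoxd8 stayed at or under 8.42.

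Within the 8 arrays below the gap, 0 transcripts passed the slope test in either direction. The correlation of each of the 3 genes with the marker mean was taken over these 8. Pearson's r was -0.71 for Hoxd8 (exact two-sided permutation p = 0.048, adjusted over the 3 genes p = 0.14), 0.22 for Hoxd9 (exact p = 0.62) and 0.13 for Hoxd10 (exact p = 0.75). Spearman's rho was -0.74 (exact p = 0.046, adjusted p = 0.14), 0.17 (exact p = 0.7) and 0.19 (exact p = 0.66), in the same order. Without the 2 of these 8 arrays farthest from their median marker mean, r was -0.79 for Hoxd8, 0.25 for Hoxd9 and -0.05 for Hoxd10 over 6 arrays. For Hoxd9 and Hoxd10, r over the 8 arrays was above 0, so their slope below 0 over all 12 rests on the 4 arrays above the gap. For Hoxd8 the adjusted p over the 8 arrays was not under 0.05 either. A difference between the 3 genes was not tested. No r is given over all 12 arrays, since they fall into separate clusters.

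Fibroblast markers moved with the slow fibre mean in part, 3 of 12 having an adjusted slope above 0 (Pi16, Mfap5 and Thy1). So did 3 of 7 endothelial markers, 3 of 10 adipocyte markers and 1 of 10 skeletal muscle markers, Myh1. With the fibroblast mean as a further term, the slope stayed below 0 for each gene, at -0.53 for Hoxd10 (SE 0.11, limma adjusted p = 0.038), -0.27 for Hoxd8 (SE 0.06, limma adjusted p = 0.075) and -0.36 for Hoxd9 (SE 0.09, limma adjusted p = 0.13). The part of these cell types in the Hoxd values was not tested beyond this fit.

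Outside that run, slopes on the slow fibre mean were small. At an unadjusted p under 0.05 there were 6 of these 35 Hox genes, beside 15.5% of all transcripts, and none passed after adjustment. Hoxc11, a lumbosacral and hindlimb gene, had a slope of -0.15 (SE 0.05, limma adjusted p = 0.17) and Hoxa3 one of 0.14 (SE 0.05, limma adjusted p = 0.12), and neither passed. Hoxc10 had a slope of -0.12 (SE 0.05, limma adjusted p = 0.29). By position, 13 of 16 genes of groups 9 to 13 had a slope below 0, as did 9 of 14 of groups 4 to 8 and 3 of 8 of groups 1 to 3. Of the 16, only 7 had a mean above the background level. The share of slopes below 0 over all transcripts was not counted, so no trend by position is read from these signs. Within cluster D, the measured genes on either side, Hoxd3 and Hoxd11, had slopes of 0.08 (SE 0.04) and -0.04 (SE 0.06). That of Hoxd11 came from signals under the background level.

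**Figure D3:**
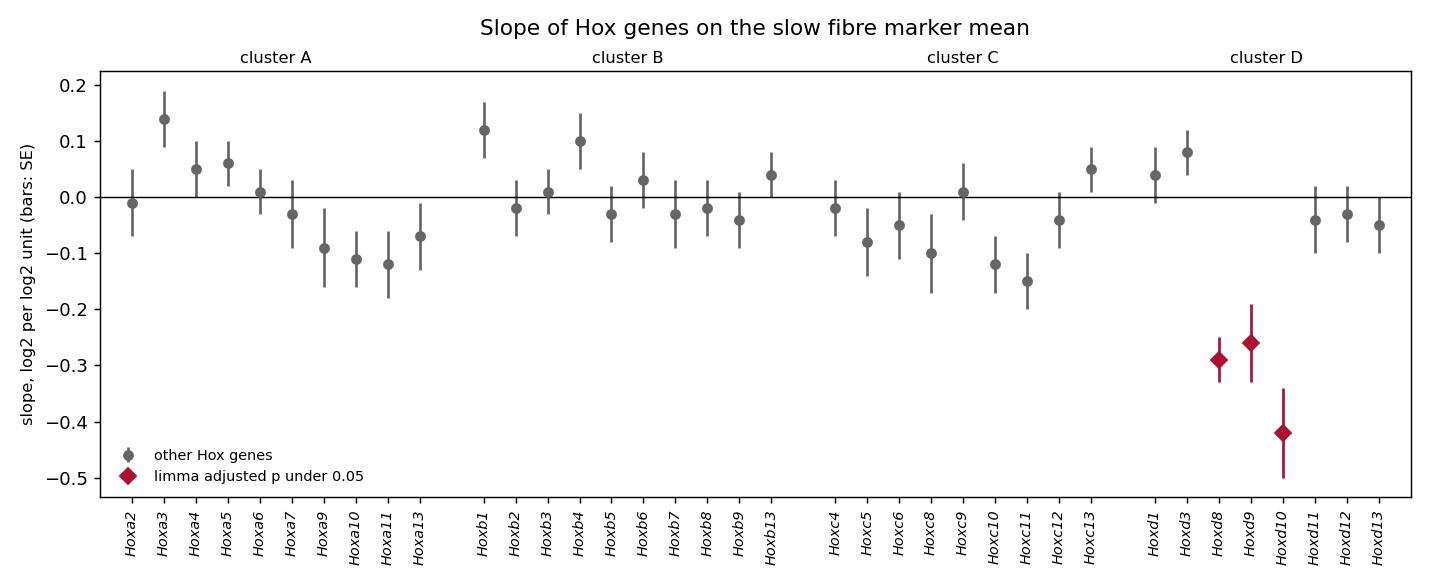
Slope of 37 of the 38 Hox genes on the slow fibre marker mean (log2 signal per log2 unit, vertical axis, bars are SE, n = 12 arrays), with genes ordered by cluster and number. Hoxd8, Hoxd9 and Hoxd10 (red diamonds, limma adjusted p under 0.05) stand at -0.29, -0.26 and -0.42, and the other genes lie between -0.15 and 0.14.

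No Hox gene passed in the same fit on the mean of 12 fibroblast markers (lowest limma adjusted p = 0.13, for Hoxd8), in which 0.856% of all transcripts were called, nor in that on 10 adipocyte markers (lowest limma adjusted p = 0.48, for Hoxc8), in which 0.00451% were called. At an unadjusted p under 0.05 there were 6 and 3 Hox genes, beside 12.4% and 6.39% of all transcripts. The fibroblast mean ran from 9.69 to 10.47 under P0.3 and from 9.09 to 11.32 under P1.2, and the adipocyte mean from 6.91 to 7.91 and from 6.93 to 8.19. In both lists the diets overlapped (exact two-sided permutation p = 0.86 and 0.58).

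Between the diets, the Hox genes differed little. By the criteria of the study (a change of more than 1.3-fold together with p under 0.05 before adjustment, here from limma), 0 Hox genes were higher under P1.2, beside 0.919% of all transcripts, and 1 of 38 was lower, or 2.63%, beside 1.36%. No transcript on the array had a limma adjusted p under 0.05 (0.0%, lowest 0.9999), and 722 had an unadjusted p under 0.05, or 3.25%, beside 2 of the 38 Hox genes. In 0 Hox genes did the groups separate without overlap, as they did in 0.153% of all transcripts. The median log2 fold change (P1.2 minus P0.3) was 0.04 over the Hox genes and -0.01 over all transcripts, and 24 genes had a value above 0 and 14 below it, the lowest being -0.39. The median SE of a Hox gene was 0.17.

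The gene that met the criteria was Hoxa7, a thoracic patterning gene at chr6:52214491-52221854 on the minus strand. Its signal ran from 6.80 over a median of 7.21 to 7.48 under P0.3 and from 6.41 over 6.75 to 7.39 under P1.2. In the P1.2 group 5 of 6 arrays lay under the P0.3 median and replicate 2, at 7.39, lay near its top, so the groups overlapped. The log2 fold change was -0.39 (SE 0.18, unadjusted limma p = 0.0419, adjusted p = 0.9999), a 1.31-fold lower signal, and an exact two-sided permutation test over the 924 splits of the arrays gave p = 0.058. It did not meet the criteria with the methods' t-test, unequal variances, array weights, median centring or quantile normalization, and it met them in 4 of the 12 fits that left out 1 array.

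Hoxa5, which patterns the neck and upper thorax and the lung, lies near it in cluster A, with Hoxa6 between them. It ran from 6.14 over 6.52 to 6.89 under P0.3 and from 6.04 over 6.20 to 6.34 under P1.2. The P1.2 arrays lay in the lower part of the P0.3 range or, for replicates 10 and 12, just under it, and the groups overlapped. The log2 fold change was -0.30 (SE 0.14, unadjusted limma p = 0.0487, adjusted p = 0.9999, exact two-sided permutation p = 0.026), under the fold threshold. Hoxa2 had a value of -0.32 (SE 0.17), which did not meet the criteria.

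Hoxc10 differed by 0.04 (SE 0.18) between the diets, Hoxa10 by 0.13 (SE 0.18), Hoxc9 by 0.20 (SE 0.16), Hoxa4 by 0.10 (SE 0.16), Hoxc6 by -0.17 (SE 0.18) and Hoxb3 by 0.05 (SE 0.13). The cluster D run differed by -0.0027 (SE 0.25) for Hoxd8, 0.18 (SE 0.29) for Hoxd9 and -0.06 (SE 0.41) for Hoxd10, and with the slow fibre mean in the fit by -0.01 (SE 0.13), 0.18 (SE 0.21) and -0.07 (SE 0.25). Each of these values lay within 2 SE of 0. By cluster, the median log2 fold change was -0.01 in A, 0.07 in B, 0.04 in C and -0.02 in D.

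**Figure D4:**
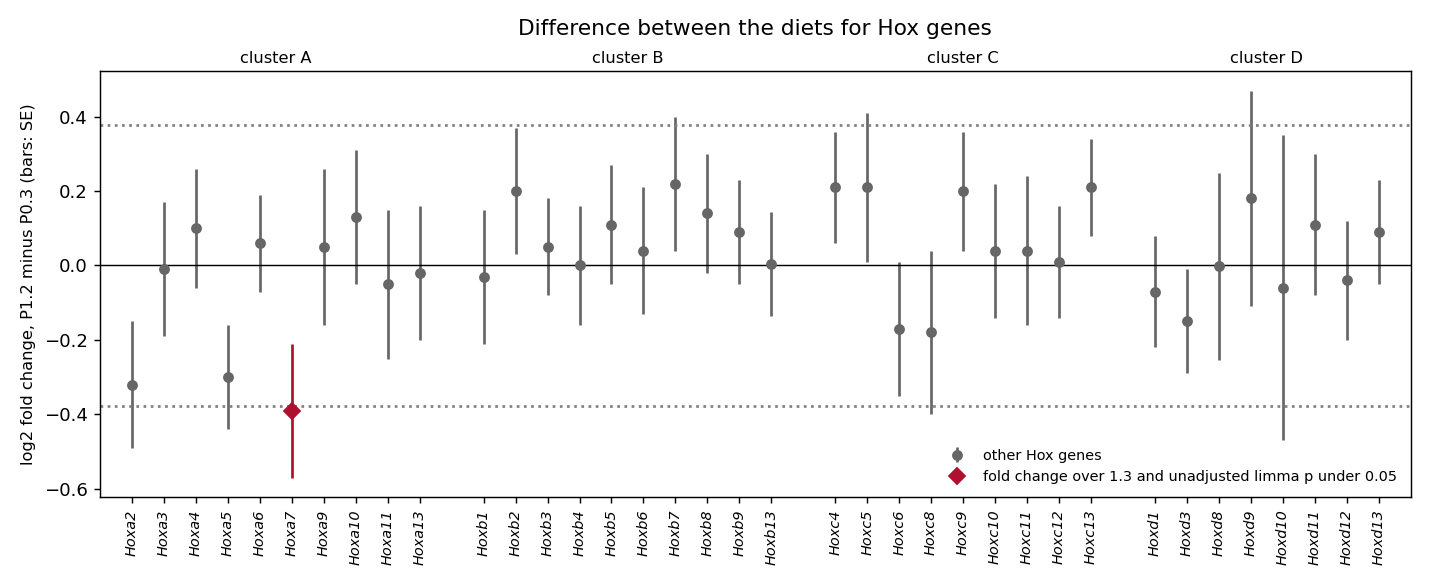
Log2 fold change of 37 of the 38 Hox genes, P1.2 minus P0.3 (vertical axis, bars are SE, n = 6 arrays per diet), ordered by cluster and number, with dotted lines at a fold change of 1.3 in either direction. Hoxa7 (red diamond, -0.39) is past the lower line with an unadjusted limma p under 0.05, and the other genes drawn did not meet the criteria.

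To see which transcripts followed the Hox signals, each was fitted on the brightest Hox gene with diet as a term. On Hoxc10, no transcript passed an adjusted p under 0.05 in limma (0.0%, lowest 0.51), and 1792 passed an unadjusted p under 0.05, or 8.07%, among them 5 of the 37 other Hox genes. The 5 with the smallest p were Atp1b2, a sodium pump subunit (slope 1.20, SE 0.22), Tcf25 (1.01, SE 0.20), Phc1, a Polycomb subunit (1.10, SE 0.23), Rassf9 (-1.64, SE 0.34) and the receptor gene Olfr944 (-1.26, SE 0.26), all with a limma adjusted p of 0.51.

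On Hoxd10, a reference chosen after its spread had been seen, 4.16% of all transcripts passed (924, and 323 to 1007 without 1 array, the lowest without P1.2 replicate 12), and 2 of the 37 other Hox genes did. These were its neighbours, Hoxd9 with a slope of 0.61 (SE 0.10, limma adjusted p = 0.0036) and Hoxd8 with one of 0.51 (SE 0.10, limma adjusted p = 0.0077). The transcripts with the smallest p were Mstn, which encodes the muscle growth inhibitor myostatin (slope 1.09, SE 0.11, limma adjusted p = 0.00037), Cdh4 (1.67, SE 0.17), Fam69a (1.03, SE 0.11), Pla2g7 (1.19, SE 0.14) and Ttll7 (0.89, SE 0.10). With the slow fibre mean beside Hoxd10 in the fit, no transcript passed, and the slopes were 0.59 for Hoxd9 (limma adjusted p = 0.32) and 0.16 for Hoxd8 (limma adjusted p = 0.76).

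The partners and regulators of Hox genes were read from fixed lists. Of 9 cofactors of the PBC and MEIS families, which bind DNA beside Hox proteins, 5 lay above the background level. No cofactor met the criteria between the diets, and the smallest p was that of Pknox2, at a log2 fold change of 0.29 (SE 0.18). Of 29 Polycomb genes, whose products keep Hox genes silent, 24 lay above the level and 0 met the criteria (median log2 fold change 0.02), as did 0 of 14 Trithorax genes, whose products keep them active (median -0.01). Phf19, whose mean of 5.45 lay under the background level, had a value of -0.36 (SE 0.18), and Pcgf1 one of 0.26 (SE 0.13). On the slow fibre mean 1 of the Polycomb genes had an adjusted slope below 0, Pcgf3 at -0.28 (SE 0.05, limma adjusted p = 0.0028).

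A list of 10 genes held those that act upstream of the clusters in the embryo and Mstn, kept as a relative of 1 of them. Of the 10, 8 lay above the level. None met the diet criteria, and their median log2 fold change was 0.04. Gdf11, a ligand that sets the trunk to tail transition of Hox use, and Mstn, its close relative, had slopes on the slow fibre mean of -0.44 (SE 0.08, limma adjusted p = 0.007) and -0.54 (SE 0.07, limma adjusted p = 0.00014). The list also held 1 gene with an adjusted slope above 0, Egr2, a hindbrain regulator, at 0.24 (SE 0.06, limma adjusted p = 0.0499). Of 13 genes that flank the clusters, 8 lay above the level, 0 met the diet criteria and 1 had an adjusted slope below 0, Snx10 beyond cluster A at -0.23 (SE 0.05, limma adjusted p = 0.016). The 5 ParaHox and Evx genes, relatives of the Hox genes, all lay under the level, at 3.88 to 5.51.

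Markers of other cell types overlapped between the diets. The means per array ran from 7.53 to 8.33 under P0.3 and 7.51 to 9.54 under P1.2 for 6 tendon markers, of which Scx and Mkx lay under the background level, and from 9.14 to 10.24 and 9.09 to 10.24 for 7 endothelial markers. The 7 satellite cell markers gave 5.36 to 5.96 and 5.26 to 5.83, with Pax7 and Myf5 under the level, the 7 Schwann cell markers 6.16 to 6.67 and 6.09 to 6.48, with Sox10 under it, and the 7 leukocyte markers 5.76 to 6.42 and 5.69 to 6.65, with Cd3e under it. Of all markers listed, 1 met the diet criteria, Lep at -0.55 (SE 0.17), whose mean of 5.47 lay under the background level, while the median of the 10 adipocyte markers was 0.14. Its part in the Hox values was not tested.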

How the data were processed

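Frozen gastrocnemius RNA from 12 mice (6 per diet) was hybridized to Affymetrix Clariom S mouse arrays. The authors summarized the probes with the GCCN-SST-RMA algorithm in Affymetrix Expression Console 1.4 and deposited log2 signals, which were used unchanged. A second deposited log2 table held the same values rounded (largest difference 0.005). Columns of the authors' own means, fold changes and p-values were not used. RMA is meant to draw arrays to 1 distribution, so a shift of all genes may not be seen. The deposited arrays were not wholly on 1 distribution. Median centring changed the counts over all transcripts from 204 higher and 303 lower under P1.2 to 287 and 203.

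Transcripts were fitted in limma 3.58.1 (R 4.3.3) by diet, over all 22206 transcripts with Benjamini-Hochberg adjustment, and by diet plus a marker mean or a reference gene, where a list's own genes were not tested. Fits were checked on simulated data. Single values were compared by exact permutation (scipy 1.17.1). The number of arrays limits the precision. Fully described were Hox genes with an unadjusted p under 0.05, the 6 brightest, and, above background, the 3 with the largest SD and the 1 with the smallest. The 5 transcripts with the smallest p were named in each reference fit, and at most 3 members of other lists. Members and lists were chosen with earlier results of these data known. The build was not given in the sources used here, but 98.44% of 20564 symbols overlapped their RefSeq gene on GRCm38.p6. Alternatives covered test, prior, array weights, normalization, filters, covariates and each array left out. Some genes, 1 Hox gene among them, are counted but not reported by name or drawn.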

Additional observations from a re-analysis of the deposited data

Results flagged for a closer look

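In 8 of 76 groups (38 genes, 2 diets) 1 array lay far from the other 5 by Dixon's test for 6 values. The chance rate of that test is about 1 in 20 groups, but the 76 groups share the same 12 arrays and are not independent. The share of such groups over all transcripts was not counted, so the number cannot be read as particular to Hox genes. All 8 far arrays were in the P1.2 group. Replicate 10 held 4 of them. It was high for Hoxc9 (8.86, others 8.24 to 8.46), for Hoxa11 (5.91, others 4.88 to 5.26) and for Hoxb9 (3.81, others 3.07 to 3.27), and low for Hoxd1 (4.26, others 4.94 to 5.02). Replicate 4 was high for Hoxa2 (6.70, others 5.65 to 5.99) and low for Hoxa4 (7.89, others 8.19 to 8.33). Replicate 12 was high for Hoxb4 (4.92, others 4.02 to 4.20) and replicate 8 for Hoxd12 (5.79, others 5.08 to 5.22). Of these genes Hoxa2, Hoxa4 and Hoxc9 had means above the background level. Without replicate 4 of P1.2, Hoxa2 met the diet criteria and Hoxa7 did not. The cause was not tested.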

How the results depend on the processing

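No paired analysis was possible because the diets share no replicate numbers. The count of Hox genes higher under P1.2 stayed at 0 in all 13 other settings and all 12 fits without 1 array. The count of lower ones was 0 instead of 1 with array weights, median centring, the methods' t-test, quantile normalization and unequal variances, and ran from 0 to 1 when arrays were left out. Hoxa7 stayed below 0 throughout, from -0.51 to -0.31 without 1 array, and lost the criteria when the array left out was P1.2 replicate 4, 6, 8, 10 or 12 or P0.3 replicate 1, 5 or 9 (p up to 0.1). Over the transcripts fitted in each setting, 98 to 323 were higher and 46 to 478 lower. The lowest counts, 98 and 46, came from the fit of only the transcripts above the median signal. The Hox genes above background numbered 13 with the 99% level and 19 to 20 without 1 array. The count falling with the slow fibre mean was 1 with the fibroblast mean as a further term, 0 in the 8 arrays below the gap, where fewer arrays were tested and 0 transcripts passed in either direction, and 2 to 3 without 1 array. In those 8 arrays the slope was -0.15 (SE 0.12) for Hoxd8 and, reversed but smaller than its SE, 0.1 (SE 0.17) for Hoxd9 and 0.11 (SE 0.17) for Hoxd10. Over all transcripts the count falling with that mean was 24 with the fibroblast term, and the count rising was 117, or 251 to 541 without 1 array. Hoxd9 lost its call when the array left out was P1.2 replicate 8, 10 or 12, or P0.3 replicate 1, 3, 5, 9 or 11 (adjusted p 0.051 to 0.19), while Hoxd8 and Hoxd10 kept theirs. The Hox genes called on Hoxd10 numbered 0 with the slow fibre mean beside it and 2 to 3 without 1 array. The count over all transcripts in that fit ran from 323 to 510 when the array left out was P1.2 replicate 12 or P0.3 replicate 1, 5, 9 or 11. The settings on 8 arrays, with a further term and with Hoxd10 were chosen after seeing the data.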
